A study of Homo sapiens with 15 samples.

Results

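The genes described here are 53 genes of mitosis and of the G2/M transition of the cell cycle, chosen by name as genes whose products act in entry into mitosis, on the spindle and kinetochores, in cytokinesis and on mitotic chromosomes, with the proliferation marker MKI67. They are 53 of the 60649 genes listed in each of 15 RNA-seq count files, and their levels were compared across 5 conditions of the cutaneous squamous cell carcinoma line HSC-5. The conditions are a control (sgNeg, genotype WT, an empty vector by the study's figure legends), 2 guides against PRMT5 (sgPRMT5-1 and sgPRMT5-2, PRMT5 knockout) and 2 guides against WDR77 (sgWDR77-1 and sgWDR77-2, WDR77 knockout), with 3 biological replicates each and neomycin as the labelled treatment of all 15. The series text calls the targets knocked down, and the labels call them knocked out. Each library holds 5146711 to 6730428 reads on genes. Levels are given as CPM (counts scaled to library size with TMM factors), in the order of replicates 1, 2 and 3, and 52 of the 53 members were tested among 14061 genes.

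Cells enter mitosis when cyclin B binds CDK1 and the CDC25 phosphatases remove the inhibitory phosphates from that kinase. Kinesins, Aurora and Polo-like kinases and the kinetochore proteins then build the spindle, and the anaphase-promoting complex with CDC20 releases the chromosomes once the spindle checkpoint is satisfied. Most of these genes are transcribed late in the cell cycle through FOXM1 and the MYB-MuvB complex and are repressed in resting cells by the DREAM complex.

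The target genes were read first. PRMT5 (ENSG00000100462.16, chromosome 14, 22920525 to 22929408), the methyltransferase, was at 59.1, 49.6 and 67.8 CPM in sgNeg, 33.0, 35.8 and 41.4 in sgPRMT5-1, 44.1, 44.5 and 39.4 in sgPRMT5-2, 54.5, 64.2 and 54.4 in sgWDR77-1, and 79.9, 65.2 and 64.4 in sgWDR77-2. The 3 libraries of each PRMT5 guide lie below all 3 sgNeg libraries, and PRMT5 fell on the log2 scale by -0.67 (standard error 0.13, adjusted p = 0.0057) with sgPRMT5-1 and -0.45 (standard error 0.13, adjusted p = 0.0114) with sgPRMT5-2. For the WDR77 guides the PRMT5 values were -0.02 and 0.25, not called. WDR77 (ENSG00000116455.14, chromosome 1, 111439890 to 111449256), the partner protein of PRMT5, was at 125, 114 and 119 CPM in sgNeg, 134, 119 and 156 in sgPRMT5-1, 126, 129.9 and 119 in sgPRMT5-2, 30.8, 52.0 and 53.3 in sgWDR77-1, and 26.6, 24.9 and 22.0 in sgWDR77-2. All 6 libraries of the WDR77 guides lie below every other library, and WDR77 fell by -1.43 (standard error 0.15, adjusted p = 2.01e-06) with sgWDR77-1 and -2.29 (standard error 0.17, adjusted p = 6.89e-09) with sgWDR77-2. Of the exonic bases, 28.2% in PRMT5 lie opposite PRMT5-AS1 and 25.1% in WDR77 are shared with another gene on the same strand, and the strand setting of the counting is not stated.

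Pairs of replicates were compared by their chi-square over degrees of freedom, which ran from 1.53 to 16.6. In 4 conditions 1 library has values with each of the other 2 that are over 1.5 times the value between those: sgNeg replicate 2 (8.80 and 6.18, against 3.68), sgPRMT5-1 replicate 3 (5.70 and 5.05, against 1.97), sgWDR77-1 replicate 1 (11.8 and 16.6, against 3.10) and sgWDR77-2 replicate 1 (4.68 and 6.33, against 1.97). In sgPRMT5-2 the furthest, replicate 1, is at 1.54 and 2.35, against 1.53. By the share of reads outside genes it is sgNeg replicate 2 (7.163%) and sgWDR77-1 replicates 2 and 3 (6.04% and 5.696%) that stand above the other 12 libraries (2.748% to 4.256%). The same 3 have the highest mitochondrial shares of the reads on genes, 2.542%, 2.258% and 2.111%, against 0.7294% to 1.729%, and the most genes with a count. In sgWDR77-1 the library furthest from its replicates has a share outside genes in the range of the other 12, at 3.573%, and the high shares go with the 2 others. Which of them stands for the condition was not tested.

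Counts of called members are given with all 15 libraries and, where they move, without the pair sgNeg replicate 2 and sgWDR77-1 replicate 1, without the 4 libraries furthest from their replicates, and without the 3 libraries with the most reads outside genes. These alternatives were chosen after the data were seen. Where a count of members stands without one over all genes, whether it differs from the other genes was not tested. Leaving out the libraries furthest from their replicates selects for a smaller spread between replicates, which favours calls, and the last alternative keeps 1 sgWDR77-1 library, assumed to vary like the other conditions.

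Markers of 5 cell types were read in all libraries. Of 7 keratinocyte markers 6 were tested, with a summed level of 1858 to 2841 CPM and KRT17 the most abundant. The 7 fibroblast markers sum to 6.68 to 16.2 CPM (1 tested, COL1A1 highest, COL1A2 at 0), and the 6 leukocyte markers to 0 to 0.740 CPM (CD79A highest, CD3E and TYROBP at 0, none tested). The 4 endothelial markers sum to 12.7 to 36.1 CPM (2 tested, CDH5 highest, KDR at 0) and the 4 melanocyte markers to 2.55 to 7.48 CPM (2 tested, PMEL highest, TYR and DCT at 0).

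The members were first compared library by library, as the median of log2 CPM minus the sgNeg mean. That median was -0.02, -0.05 and 0.08 in sgNeg, 0.16, 0.16 and 0.23 in sgPRMT5-1, 0.21, 0.17 and 0.16 in sgPRMT5-2, 0.28, 0.01 and -0.24 in sgWDR77-1, and 0.25, 0.17 and 0.08 in sgWDR77-2. All 6 libraries of the PRMT5 guides lie above the 3 sgNeg libraries, while sgWDR77-1 spans from above to below them: 37, 27 and 2 of the 53 members were above the sgNeg mean in its replicates 1, 2 and 3. The summed level of the members was 9108 to 9765 CPM in sgNeg, 10475 to 10706 in sgPRMT5-1, 10492 to 10858 in sgPRMT5-2, 7860.4 to 11867 in sgWDR77-1 and 9845 to 11498 in sgWDR77-2. In bulk RNA, a change in the share of cells in mitosis and a change in these RNAs per mitotic cell cannot be told apart.

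**Figure D1:**
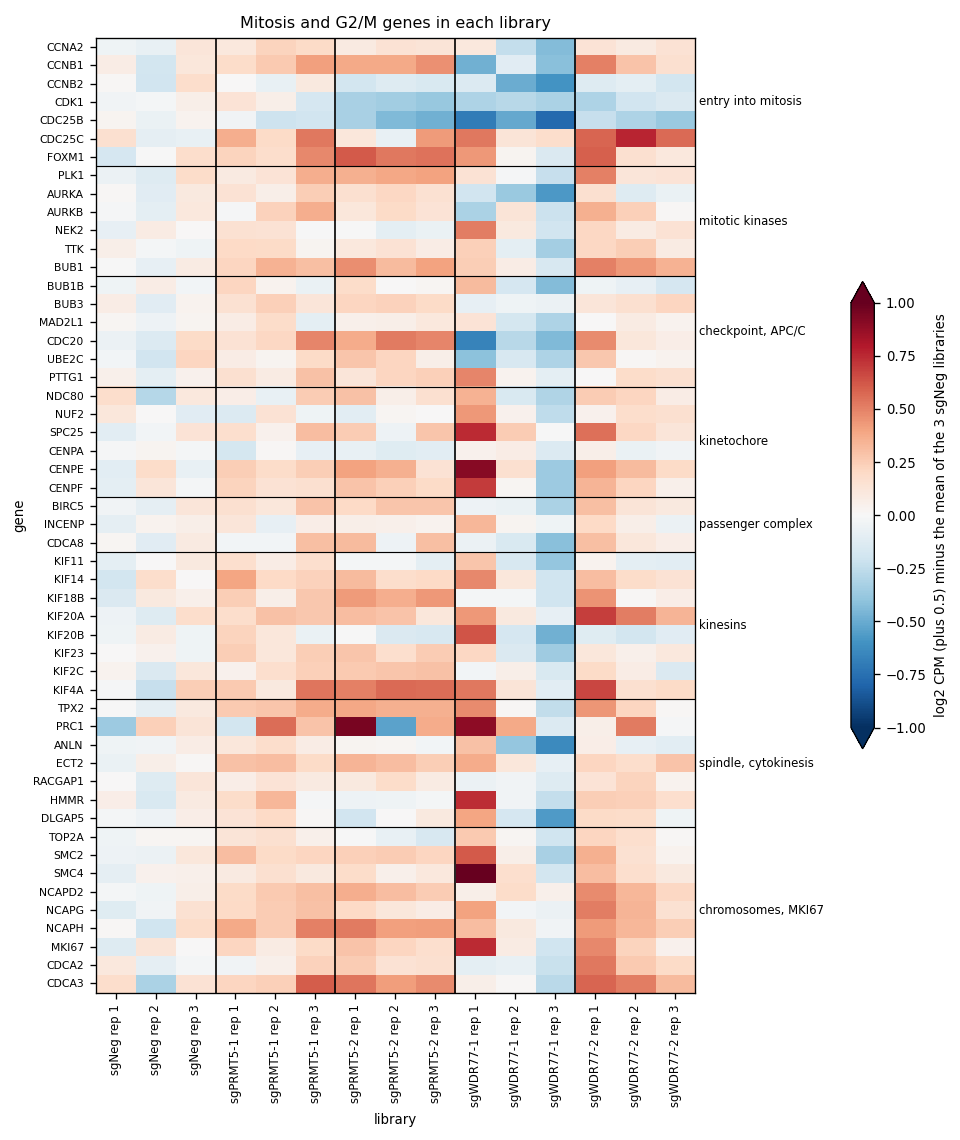
Heat map of the 52 tested members (vertical axis, in blocks by role) in the 15 libraries (horizontal axis, 3 replicates per condition). Colour gives log2 CPM (plus 0.5) minus the mean of the 3 sgNeg libraries, from -1 (blue) to 1 (red). Both PRMT5 guides and sgWDR77-2 are mostly red, and the 3 replicates of sgWDR77-1 go from red to blue.

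**Figure D2:**
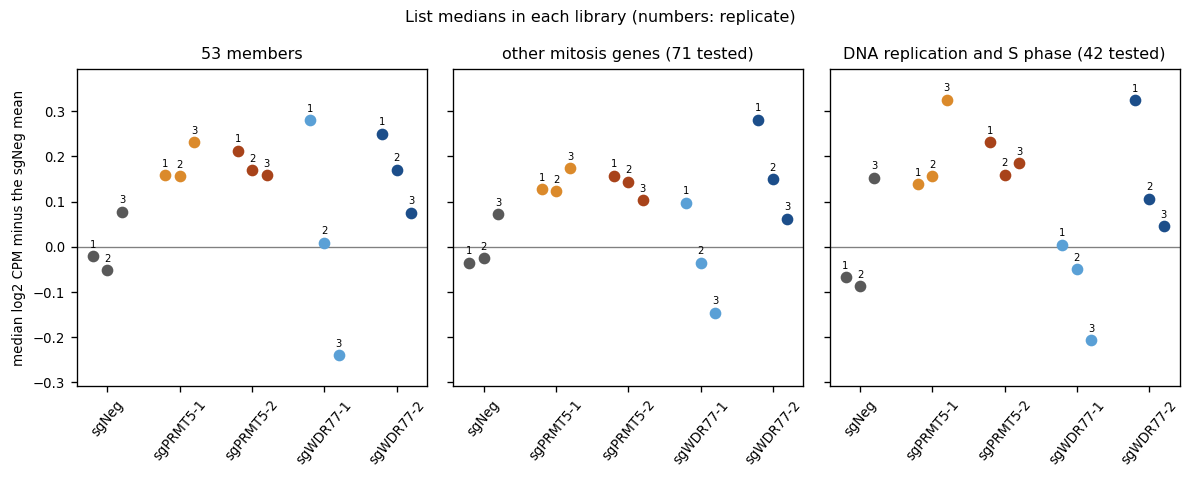
Median log2 CPM minus the sgNeg mean (vertical axis) in each library, for the 53 members, 71 other mitosis genes and 42 genes of DNA replication and S phase. Each point is 1 library, numbered by replicate and placed by condition (horizontal axis). The sgWDR77-1 replicates are the most spread in the panel of the members, and sgWDR77-1 replicate 3 is the lowest library in all 3 panels.

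With sgPRMT5-1 against sgNeg, limma voom called 0 members lower and 0 higher of 52 at adjusted p under 0.05, while 1.61% of all tested genes (227) were called lower and 1.26% (177) higher. With library totals alone as the scale those were 263 and 98. At unadjusted p under 0.05, 0 members were lower and 13 higher (all genes: 7.44% and 10%), and limma-trend also called 0 each way. Of the 52 members, 49 had a fold change above 0 and 3 below it. Their median log2 fold change was 0.17 (range -0.14 to 0.38), against 0.02 for all genes. Without sgWDR77-1 replicate 1 in the fit, 4 members were called higher, and 2 were without the pair (median 0.12), the 4 libraries (0.11) or the 3 libraries (0.13) named above.

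With sgPRMT5-2 against sgNeg, 14.7% of all tested genes (2065) were called lower and 16.3% (2296) higher, and with library totals alone as the scale 2694 and 1644. Among the members 2 of 52 (3.85%) fell and 15 (28.8%) rose. The member median was 0.19 (range -0.41 to 0.56), against 0.01 for all genes, with 41 members above 0 and 11 below. The 3 guide libraries lie apart from the 3 sgNeg libraries in 29 of the 52 members, the 17 called among them. The calls rest on the same values, and no share of genes that lie apart is given over all tested genes. The count of members called higher was 8 without sgNeg replicate 1 (over all genes 1573 of 14044) and 7 without sgNeg replicate 2 (over all genes 1663 of 14040). It was 8, 9 and 9 without sgPRMT5-2 replicates 1, 2 and 3. It was 16 without the pair (median 0.13), 21 without the 4 libraries and 16 without the 3 libraries (median 0.12), with 3 lower each time. With library totals alone it was 10 (over all genes 1644 of 14067), and with only the 6 libraries of these conditions fitted 22 (over all genes 2960 of 14184).

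With sgWDR77-1 against sgNeg, 5.9% of all tested genes were called lower and 3.58% higher. Among the members 5 of 52 (9.62%) fell, and limma voom called 0 higher, with 0 higher at unadjusted p under 0.05 and 0 by limma-trend. The member median was -0.02 (range -0.67 to 0.46), against -0.01 for all genes, with 24 above 0 and 28 below. The count called lower was 3 without sgNeg replicate 1 (over all genes 593 of 14044) and 1 without sgNeg replicate 3 (over all genes 498 of 14057). It was 8 without sgWDR77-1 replicate 1 (median -0.11, 44 below 0). Without sgWDR77-1 replicate 3 it was 2, with 2 also called higher (median 0.11, 17 below 0). With only the 6 libraries of these conditions fitted, 1 member was called lower (over all genes 237 of 14202). Without the pair 8 were called lower (median -0.12) and without the 4 libraries 15. Without the 3 libraries with the most reads outside genes, 4 were lower and 19 higher (median 0.25, 15 below 0), so the direction of most members here turns on which sgWDR77-1 libraries are kept. The 2 sgWDR77-1 libraries with the lower member medians, replicates 2 and 3, are those with the high shares of reads outside genes.

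With sgWDR77-2 against sgNeg, 2.98% of all tested genes were called lower and 1.81% higher. Of the 52 members 4 (7.69%) rose, and limma voom called 0 lower, with 2 lower at unadjusted p under 0.05 and 0 by limma-trend. The member median was 0.18 (range -0.31 to 0.65), against 0.02 for all genes, with 43 above 0 and 9 below. The count called higher was 1, 0 and 2 without sgNeg replicates 1, 2 and 3. Over all genes these fits called 130 of 14044, 108 of 14040 and 126 of 14057 higher. The member count was 10 without sgWDR77-1 replicate 1, and 0 without either sgWDR77-2 replicate 1 or replicate 2. Leaving out sgPRMT5-1 replicate 3, sgWDR77-1 replicate 1 or sgWDR77-1 replicate 2 gave 1 member called lower. Without the pair 1 was lower and 6 higher (median 0.14), without the 4 libraries 1 and 6 (median 0.08), and without the 3 libraries 1 and 9 (median 0.15).

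The 4 comparisons share the 3 sgNeg libraries, so a value that is high or low in sgNeg enters all of them. Side by side, 31 members were called in no guide, 16 in 1 guide, 5 in 2 guides, and 0 in 3 or 4 guides. The fold changes of 20 members were above 0 with all 4 guides and those of 2 members below 0 with all 4. No share over all tested genes stands beside these counts across guides, so whether they differ from the other genes was not tested. Across the 5 conditions the F-test called 20 of the 52 members (38.5%), against 35.8% of all tested genes. The share over all genes is for the fit of all 15 libraries only. No such share is given beside the count of members in the other fits. That count was 11 without sgPRMT5-2 replicate 1, 35 without sgWDR77-1 replicate 1, 39 without the pair, 41 without the 4 libraries furthest from their replicates and 26 without the 3 libraries with the most reads outside genes.

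**Figure D3:**
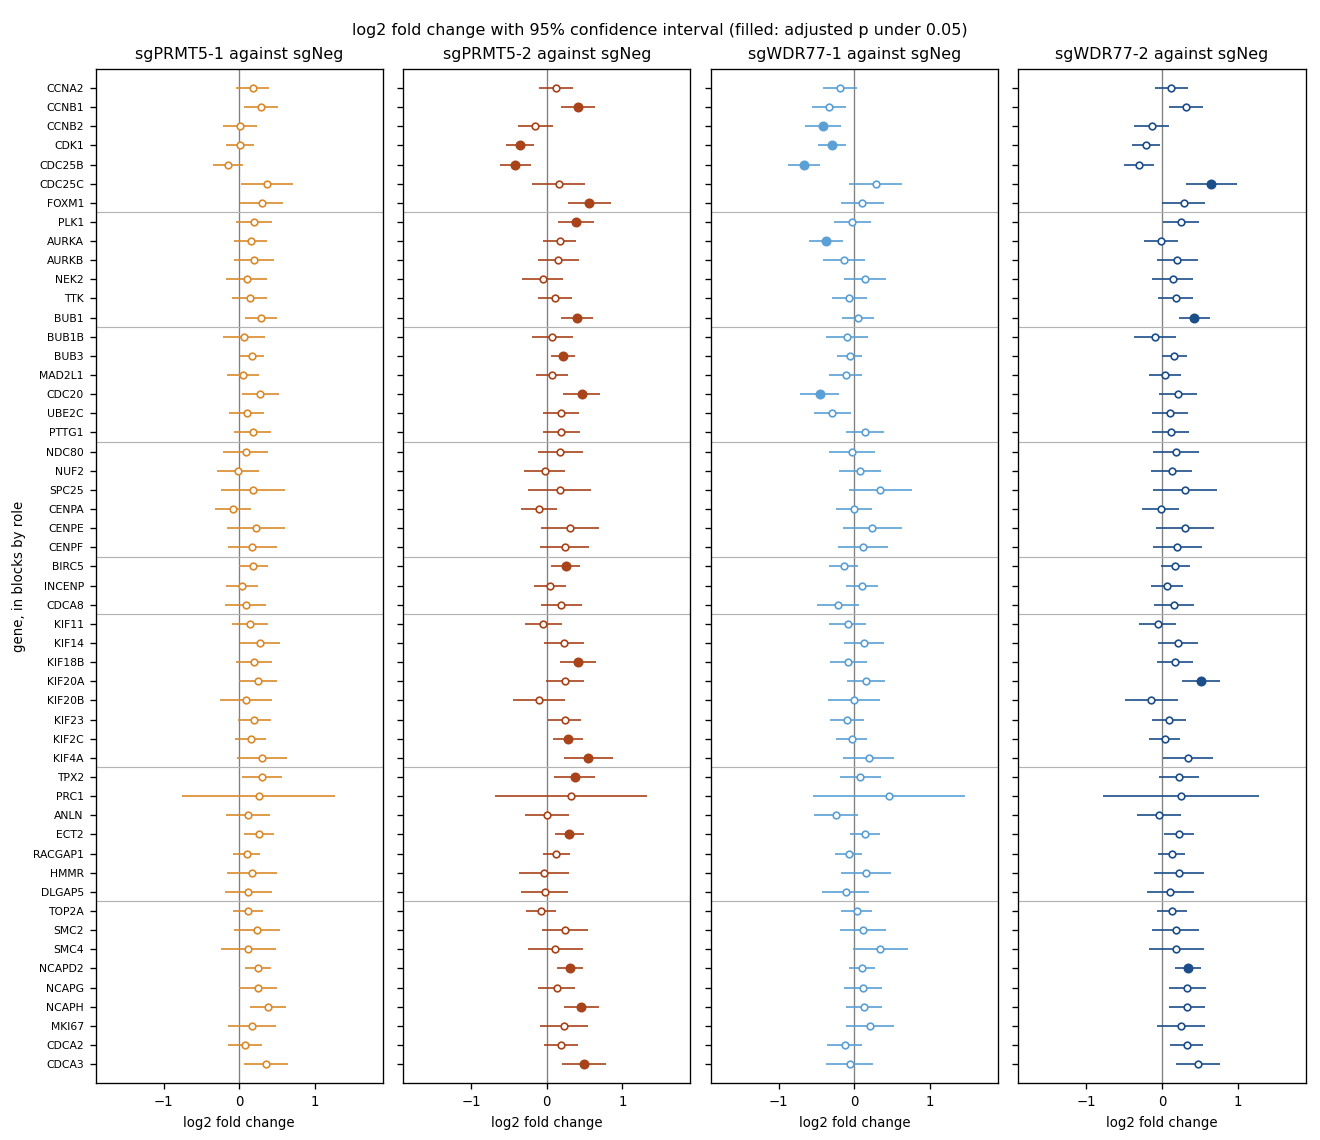
log2 fold change against sgNeg (horizontal axis) with its 95% confidence interval for each of the 52 tested members (vertical axis, in blocks by role), 1 panel per guide. Filled points have an adjusted p under 0.05 by limma voom. Filled points lie on both sides of 0 with sgPRMT5-2, below 0 with sgWDR77-1 and above 0 with sgWDR77-2.

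Entry into mitosis is represented by 7 members (CCNA2, CCNB1, CCNB2, CDK1, CDC25B, CDC25C and FOXM1). All 7 were called by the F-test, against 35.8% of all tested genes. With sgPRMT5-2, 2 fell and 2 rose (over all genes, here and for the groups below, 14.7% and 16.3%). With sgWDR77-1, 3 fell (all genes: 5.9%), and with sgWDR77-2, 1 rose (all genes: 1.81%). Their medians were 0.18, 0.12, -0.30 and 0.13 with the guides in the order sgPRMT5-1, then sgPRMT5-2, then sgWDR77-1, then sgWDR77-2. CCNB1 (ENSG00000134057.15, chromosome 5, 69167135 to 69178245), the cyclin that activates CDK1 at the start of mitosis, was at 347, 289.9 and 358 CPM in sgNeg, 376, 396 and 438 in sgPRMT5-1, 430.1, 430.2 and 453 in sgPRMT5-2, 236, 305 and 246 in sgWDR77-1, and 469, 402 and 369 in sgWDR77-2. Both PRMT5 guides and sgWDR77-2 lie wholly above sgNeg, and sgWDR77-1 overlaps it. CCNB1 rose with sgPRMT5-2, at 0.41 (standard error 0.11, adjusted p = 0.00639), a call lost without sgNeg replicate 2 (adjusted p = 0.054). Its values with sgPRMT5-1, sgWDR77-1 and sgWDR77-2 were 0.29, -0.34 and 0.32, not called. For CCNB1 the sgWDR77-1 value is called without sgNeg replicate 2, sgPRMT5-1 replicate 3, sgWDR77-1 replicate 2 or sgWDR77-2 replicates 1 or 3 (adjusted p of 0.0125 to 0.0395), and the sgWDR77-2 value without sgWDR77-1 replicate 1 (adjusted p = 0.0377).

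CDK1 (ENSG00000170312.16, chromosome 10, 60778331 to 60794852), the kinase that drives mitotic entry, was at 172, 173 and 183 CPM in sgNeg, 193, 184 and 156 in sgPRMT5-1, 140.2, 138 and 135 in sgPRMT5-2, 142, 145 and 141 in sgWDR77-1, and 142, 154 and 159 in sgWDR77-2. The libraries of sgPRMT5-2, sgWDR77-1 and sgWDR77-2 all lie below those of sgNeg, and those of sgPRMT5-1 overlap them. CDK1 fell with sgPRMT5-2, at -0.35 (standard error 0.09, adjusted p = 0.00493), and with sgWDR77-1, at -0.30 (standard error 0.09, adjusted p = 0.0388). With sgWDR77-2 it was -0.21 (standard error 0.09, adjusted p = 0.185) and with sgPRMT5-1 0.01, not called. The sgWDR77-1 call is lost without any 1 of sgNeg replicates 1, 2 and 3, sgPRMT5-2 replicates 1 and 3, and sgWDR77-1 replicate 3 (adjusted p of 0.0502 to 0.0913). For CDK1 it is also lost with the replicate block (adjusted p = 0.0522), with only the 6 libraries of these conditions (adjusted p = 0.196), without the pair (adjusted p = 0.0521) and without the 3 libraries with the most reads outside genes (adjusted p = 0.0734).

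CDC25B (ENSG00000101224.18, chromosome 20, 3786772 to 3806121), a phosphatase that starts the activation of CDK1, was at 95.3, 89.7 and 96.3 CPM in sgNeg, 91.5, 81.3 and 81.8 in sgPRMT5-1, 74.9, 68.8 and 67.2 in sgPRMT5-2, 57.4, 65.5 and 54.6 in sgWDR77-1, and 79.9, 75.4 and 72.2 in sgWDR77-2. The sgWDR77-1 libraries are the 3 lowest of all 15, those of sgPRMT5-2 and sgWDR77-2 also lie below sgNeg, and those of sgPRMT5-1 overlap it. CDC25B fell with sgPRMT5-2, at -0.41 (standard error 0.10, adjusted p = 0.00249), and with sgWDR77-1, at -0.67 (standard error 0.10, adjusted p = 0.000186). With sgPRMT5-1 it was -0.14 (standard error 0.10, adjusted p = 0.461) and with sgWDR77-2 -0.31 (standard error 0.10, adjusted p = 0.0702), not called. The sgWDR77-2 value of CDC25B is called without sgPRMT5-1 replicate 3 or sgWDR77-1 replicates 1 or 2 (adjusted p of 0.0245 to 0.0379). CDC25C (ENSG00000158402.21, chromosome 5, 138285269 to 138338355), the phosphatase that completes CDK1 activation, was at 16.1, 13.5 and 13.6 CPM in sgNeg, 18.6, 16.5 and 20.9 in sgPRMT5-1, 15.5, 13.6 and 19.5 in sgPRMT5-2, 20.9, 15.7 and 16.2 in sgWDR77-1, and 21.8, 24.7 and 21.4 in sgWDR77-2. The 3 sgWDR77-2 libraries are the highest of all 15, sgPRMT5-1 also lies above sgNeg, and the other guides overlap it. CDC25C rose with sgWDR77-2, at 0.65 (standard error 0.16, adjusted p = 0.0199), a call lost without any 1 of sgNeg replicates 2 and 3 and sgWDR77-2 replicates 1 and 2 (adjusted p of 0.0507 to 0.12).

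CCNB2 (ENSG00000157456.8, chromosome 15, 59105126 to 59125045), a B-type cyclin of mitosis, was at 116, 101 and 130.4 CPM in sgNeg, 116, 109 and 123 in sgPRMT5-1, 102, 105 and 103 in sgPRMT5-2, 105, 81.4 and 75.7 in sgWDR77-1, and 105, 108 and 102 in sgWDR77-2. Every guide overlaps sgNeg in at least 1 library. CCNB2 fell with sgWDR77-1, at -0.41 (standard error 0.11, adjusted p = 0.0248), and this call is lost without any 1 of sgNeg replicate 3 and sgWDR77-1 replicates 2 and 3 (adjusted p of 0.0575 to 0.0972), with only the 6 libraries of these conditions (adjusted p = 0.185) and without the 3 libraries with the most reads outside genes (adjusted p = 0.155). FOXM1 (ENSG00000111206.13, chromosome 12, 2857680 to 2877174), the transcription factor of the G2/M genes, was at 184, 206 and 233 CPM in sgNeg, 242, 234 and 288 in sgPRMT5-1, 316, 298 and 300.3 in sgPRMT5-2, 279.7, 210.5 and 186 in sgWDR77-1, and 312, 231 and 222 in sgWDR77-2. The libraries of both PRMT5 guides lie above all sgNeg libraries, by a small margin for sgPRMT5-1, and those of the WDR77 guides overlap them. FOXM1 rose with sgPRMT5-2, at 0.56 (standard error 0.14, adjusted p = 0.00332), and was 0.30 (standard error 0.14, adjusted p = 0.266) with sgPRMT5-1, not called. Of its exonic bases 15.9% lie opposite ITFG2.

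**Figure D4:**
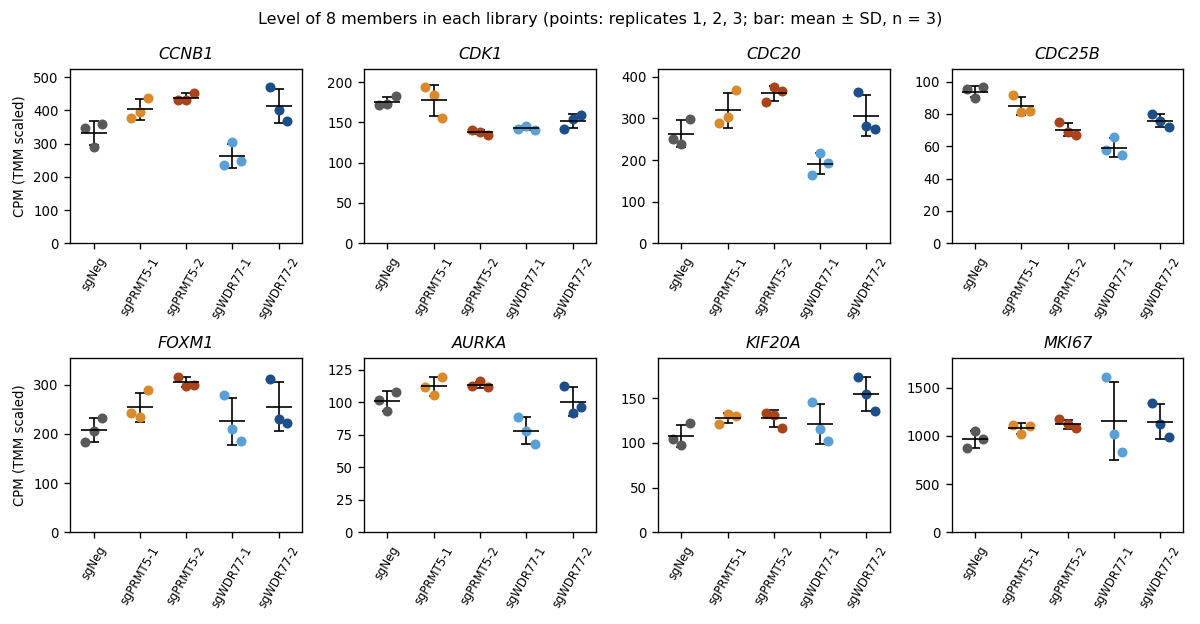
CPM (vertical axis) of 8 members in each of the 5 conditions (horizontal axis). Points are the 3 replicates in order, and bars give the mean and standard deviation (n = 3). CDC25B is lowest with sgWDR77-1, CDC20 and AURKA are lowest with sgWDR77-1, FOXM1 has its highest mean with sgPRMT5-2, and MKI67 has its most spread replicates with sgWDR77-1.

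Promoters of 4 members are printed to show the sequence elements of late cell cycle genes beside these values: CCNB2 and CDC20, chosen by name, and CDC25B and CDC25C, the members with the lowest (-0.38) and highest (0.37) mean log2 fold change over the 4 guides. Capitals mark each match to the CHR element (TTTGAA, or TTCAAA on the opposite strand) and to the CCAAT box (CCAAT, or ATTGG on the opposite strand). Each sequence runs from 250 bases before to 50 after the start of the first listed entry, as credited to RefSeq GRCh38.p14, read on the strand of the gene. CCNB2 (chr15:59104896-59105195, plus strand) has 1 CHR match and 4 CCAAT matches:
CCNB2: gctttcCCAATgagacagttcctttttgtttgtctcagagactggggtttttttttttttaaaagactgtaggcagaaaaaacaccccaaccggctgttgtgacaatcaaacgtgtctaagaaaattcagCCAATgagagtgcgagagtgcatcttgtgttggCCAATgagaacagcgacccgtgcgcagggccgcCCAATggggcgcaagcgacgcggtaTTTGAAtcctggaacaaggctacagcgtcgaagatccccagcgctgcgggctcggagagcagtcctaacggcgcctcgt
CDC20 (chr1:43358731-43359030, plus strand) has 2 CHR and 2 CCAAT matches:
CDC20: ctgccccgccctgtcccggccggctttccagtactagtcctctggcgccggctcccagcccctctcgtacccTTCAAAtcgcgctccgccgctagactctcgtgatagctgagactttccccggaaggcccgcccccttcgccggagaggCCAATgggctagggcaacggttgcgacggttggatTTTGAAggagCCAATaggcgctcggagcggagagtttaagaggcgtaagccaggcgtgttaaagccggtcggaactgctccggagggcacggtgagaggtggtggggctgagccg
CDC25B (chr20:3786701-3787000, plus strand, the first of 4 entries) has none of either:
CDC25B: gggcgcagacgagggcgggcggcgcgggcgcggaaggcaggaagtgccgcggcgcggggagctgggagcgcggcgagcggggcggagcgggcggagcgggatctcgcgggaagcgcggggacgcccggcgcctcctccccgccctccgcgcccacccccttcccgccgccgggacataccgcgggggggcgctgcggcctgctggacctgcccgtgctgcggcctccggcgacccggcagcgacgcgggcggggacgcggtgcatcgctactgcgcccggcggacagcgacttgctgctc
CDC25C (chr5:138338306-138338605, minus strand, the first of 4 entries) also has none:
CDC25C: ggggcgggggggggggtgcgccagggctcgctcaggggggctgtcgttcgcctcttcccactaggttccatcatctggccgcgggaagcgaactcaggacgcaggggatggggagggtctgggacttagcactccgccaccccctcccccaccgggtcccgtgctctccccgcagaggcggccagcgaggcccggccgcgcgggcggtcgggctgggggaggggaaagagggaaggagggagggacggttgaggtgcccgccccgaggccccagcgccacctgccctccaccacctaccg
Promoter entries matched 44 of the 53 members, some with more than 1 entry. Only the first listed entry of each gene was searched. The lack of matches in CDC25B and CDC25C therefore covers that entry alone. A CHR match is in 32 of the 44 (72.7%), against 15.4% of 27305 promoters, a CCAAT match in 33 (75%), against 35.7%, and both in 25 (56.8%), against 6.08%. A match is a description of the sequence only.

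Mitotic kinases are 6 members (PLK1, AURKA, AURKB, BUB1, TTK and NEK2), of which the F-test called 3. With sgPRMT5-2, 2 rose; with sgWDR77-1, 1 fell; with sgWDR77-2, 1 rose; the medians were 0.17, 0.16, -0.05 and 0.19 in the same order of guides. BUB1 (ENSG00000169679.15, chromosome 2, 110637528 to 110678063), a kinase of the spindle checkpoint, was at 98.0, 92.7 and 104 CPM in sgNeg, 114, 125 and 121 in sgPRMT5-1, 136, 122 and 129.6 in sgPRMT5-2, 116, 103 and 87.6 in sgWDR77-1, and 139, 132 and 125 in sgWDR77-2. Both PRMT5 guides and sgWDR77-2 lie above all sgNeg libraries, and sgWDR77-1 overlaps them. BUB1 rose with sgPRMT5-2, at 0.40 (standard error 0.10, adjusted p = 0.00482), and with sgWDR77-2, at 0.43 (standard error 0.10, adjusted p = 0.0129). The sgWDR77-2 call is lost without any 1 of sgNeg replicates 1 and 2 and sgWDR77-2 replicates 1 and 2 (adjusted p of 0.0527 to 0.0679), and with sgPRMT5-1 BUB1 was 0.29, called only without sgWDR77-1 replicate 1 (adjusted p = 0.0487).

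PLK1 (ENSG00000166851.15, chromosome 16, 23677656 to 23690367), the Polo-like kinase of mitotic entry, was at 139, 133 and 165 CPM in sgNeg, 154, 159.6 and 187 in sgPRMT5-1, 185, 190.0 and 192 in sgPRMT5-2, 161, 144 and 124 in sgWDR77-1, and 205, 158 and 159 in sgWDR77-2. Only sgPRMT5-2 lies apart from sgNeg, above it. PLK1 rose with sgPRMT5-2, at 0.38 (standard error 0.12, adjusted p = 0.0152), a call lost without any 1 of sgNeg replicates 1 and 2 and sgPRMT5-2 replicates 2 and 3 (adjusted p of 0.0554 to 0.0754). AURKA (ENSG00000087586.18, chromosome 20, 56369389 to 56392337), the Aurora kinase of centrosomes and spindle poles, was at 102, 93.4 and 108 CPM in sgNeg, 112, 105 and 119.8 in sgPRMT5-1, 113, 116 and 112 in sgPRMT5-2, 88.5, 78.1 and 67.7 in sgWDR77-1, and 113, 92.2 and 96.7 in sgWDR77-2. The sgWDR77-1 libraries lie below and the sgPRMT5-2 libraries above all of sgNeg, and the other guides overlap it. AURKA fell with sgWDR77-1, at -0.38 (standard error 0.11, adjusted p = 0.0311), and was 0.17 (standard error 0.10, adjusted p = 0.222) with sgPRMT5-2, not called. The call in sgWDR77-1 is lost without any 1 of sgNeg replicates 1 and 3 and sgWDR77-1 replicate 3 (adjusted p of 0.0581 to 0.106), with no filter (adjusted p = 0.0512), with only the 6 libraries of these conditions (adjusted p = 0.174) and without the 3 libraries with the most reads outside genes (adjusted p = 0.185).

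AURKB (ENSG00000178999.13, chromosome 17, 8204733 to 8210600), the Aurora kinase of the chromosomal passenger complex, was at 41.3, 39.0 and 45.0 CPM in sgNeg, 41.4, 49.1 and 53.8 in sgPRMT5-1, 45.1, 47.8 and 45.9 in sgPRMT5-2, 33.4, 45.7 and 35.8 in sgWDR77-1, and 53.5, 49.3 and 41.9 in sgWDR77-2. The sgPRMT5-2 libraries lie just above sgNeg and the others overlap it. No guide was called for AURKB, with values of 0.20, 0.15, -0.13 and 0.20 in the same order.

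The spindle checkpoint and the anaphase-promoting complex are represented by 6 members (CDC20, BUB1B, BUB3, MAD2L1, UBE2C and PTTG1), of which the F-test called 3. With sgPRMT5-2, 2 rose (CDC20 and BUB3, the latter by 0.21 (standard error 0.08, adjusted p = 0.0416)), and with sgWDR77-1, 1 fell; the medians were 0.13, 0.19, -0.11 and 0.11 in the same order of guides. CDC20 (ENSG00000117399.14, chromosome 1, 43358981 to 43363203), the activator of the anaphase-promoting complex, was at 251, 238 and 299.6 CPM in sgNeg, 289, 303 and 368 in sgPRMT5-1, 339, 374 and 367 in sgPRMT5-2, 165, 216 and 193 in sgWDR77-1, and 363, 283 and 274 in sgWDR77-2. The sgPRMT5-2 libraries lie above and the sgWDR77-1 libraries below all of sgNeg, and the other guides overlap it. CDC20 rose with sgPRMT5-2, at 0.46 (standard error 0.12, adjusted p = 0.00604), and fell with sgWDR77-1, at -0.46 (standard error 0.12, adjusted p = 0.0217). The sgWDR77-1 call is lost without any 1 of sgNeg replicate 3 and sgWDR77-1 replicate 1 (adjusted p of 0.077 to 0.107), with no filter (adjusted p = 0.0504) and with only the 6 libraries of these conditions (adjusted p = 0.104). The values with sgPRMT5-1 and sgWDR77-2 were 0.28 and 0.22, not called.

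BUB1B (ENSG00000156970.13, chromosome 15, 40161023 to 40221123), the checkpoint protein BubR1 that holds back CDC20, was at 93.0, 101 and 94.0 CPM in sgNeg, 111, 98.1 and 91.6 in sgPRMT5-1, 109, 96.2 and 97.1 in sgPRMT5-2, 119.5, 85.0 and 70.6 in sgWDR77-1, and 93.0, 90.6 and 85.3 in sgWDR77-2. All 4 guides overlap sgNeg. None was called, with values of 0.06, 0.07, -0.10 and -0.10 for BUB1B in the same order. Its sgWDR77-1 value turned above 0 without the 3 libraries with the most reads outside genes, a fit that keeps 1 sgWDR77-1 library.

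Kinetochore and centromere genes are 6 members (NDC80, NUF2, SPC25, CENPA, CENPE and CENPF). By limma voom the F-test called 0 of them, with 0 at unadjusted p under 0.05 and 0 by limma-trend, and no guide was called for any (0 at unadjusted p under 0.05 and 0 by limma-trend with each guide). Their medians were 0.13, 0.17, 0.10 and 0.19 in the same order. CENPF (ENSG00000117724.13, chromosome 1, 214603185 to 214664574), a large protein of the outer kinetochore, was at 381, 446 and 402 CPM in sgNeg, 477, 451 and 457 in sgPRMT5-1, 499, 483 and 466 in sgPRMT5-2, 663, 415 and 317 in sgWDR77-1, and 518, 475 and 424 in sgWDR77-2. Both PRMT5 guides lie above all sgNeg libraries, whereas the sgWDR77-1 libraries span from below to above every other library. The CENPF values were 0.17 (standard error 0.16, adjusted p = 0.612) and 0.24 (standard error 0.16, adjusted p = 0.262) with the PRMT5 guides, not called.

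The partners of AURKB in the chromosomal passenger complex are 3 members (BIRC5, CDCA8 and INCENP), of which the F-test called 1. BIRC5, the survivin subunit, rose with sgPRMT5-2, at 0.25 (standard error 0.09, adjusted p = 0.0417), and the medians of the 3 were 0.08, 0.19, -0.14 and 0.16 in the same order. That call and those of BUB3, KIF2C and TPX2 with the same guide are lost without any 1 of 10, 12, 8 and 7 of the libraries, respectively. All 4 are also lost with library totals alone (adjusted p = 0.151, 0.215, 0.127 and 0.0784). Those of BIRC5 and BUB3 are lost with median of ratios and with the replicate block as well, and those of BIRC5, BUB3 and KIF2C without the pair and without the 3 libraries with the most reads outside genes.

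Kinesins are 8 members (KIF11, KIF14, KIF18B, KIF20A, KIF20B, KIF23, KIF2C and KIF4A), of which the F-test called 2. With sgPRMT5-2, 3 rose, KIF18B at 0.41 (standard error 0.11, adjusted p = 0.00864), KIF2C at 0.28 (standard error 0.10, adjusted p = 0.0338) and KIF4A; with sgWDR77-2, 1 rose. The KIF18B call is lost without sgNeg replicate 1 (adjusted p = 0.0692), and the group medians were 0.20, 0.24, -0.02 and 0.13 in the same order. KIF4A (ENSG00000090889.12, chromosome X, 70290104 to 70420886), a motor of mitotic chromosomes and of the central spindle, was at 53.8, 46.2 and 64.6 CPM in sgNeg, 65.4, 58.2 and 78.9 in sgPRMT5-1, 77.3, 80.7 and 80.2 in sgPRMT5-2, 78.7, 59.6 and 50.4 in sgWDR77-1, and 86.5, 60.8 and 62.3 in sgWDR77-2. The sgPRMT5-2 libraries lie above all sgNeg libraries, and the other guides overlap them. KIF4A rose with sgPRMT5-2, at 0.55 (standard error 0.16, adjusted p = 0.0109), a call lost without sgNeg replicate 2 (adjusted p = 0.0729).

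KIF20A (ENSG00000112984.12, chromosome 5, 138178719 to 138187723), a motor of the central spindle in cytokinesis, was at 104, 98.3 and 122 CPM in sgNeg, 122, 132 and 130.0 in sgPRMT5-1, 134, 132 and 117 in sgPRMT5-2, 146, 115 and 102 in sgWDR77-1, and 174, 154 and 136 in sgWDR77-2. The sgWDR77-2 libraries lie above all sgNeg libraries, and the other guides overlap them. KIF20A rose with sgWDR77-2, at 0.52 (standard error 0.12, adjusted p = 0.0127), a call lost without any 1 of sgNeg replicates 1 and 2 and sgWDR77-2 replicates 1 and 2 (adjusted p of 0.0573 to 0.0886). With sgPRMT5-1, sgPRMT5-2 and sgWDR77-1 it was 0.25, 0.24 and 0.15, not called.

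Spindle assembly and cytokinesis are represented by 8 members (TPX2, PRC1, NUSAP1, ANLN, ECT2, RACGAP1, HMMR and DLGAP5), of which 7 were tested. By limma voom the F-test called 0 of the 7, with 2 at unadjusted p under 0.05 and 0 by limma-trend. With sgPRMT5-2, TPX2, a spindle assembly factor, rose by 0.37 (standard error 0.13, adjusted p = 0.0338), and ECT2, the exchange factor that starts cytokinesis, rose by 0.30 (standard error 0.09, adjusted p = 0.0193), a call lost without any 1 of sgNeg replicates 1 and 3 and sgPRMT5-2 replicates 1, 2 and 3 (adjusted p of 0.0526 to 0.0963) and with library totals alone (adjusted p = 0.0675). The medians were 0.17, 0.12, 0.08 and 0.22 in the same order. NUSAP1 was not tested, with 0 to 4 counts per library, and 81.4% of its exonic bases are shared with another gene on the same strand. PRC1, with 5 to 21 counts per library, shares 57.6% of its exonic bases in that way, so the levels of both are uncertain.

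Mitotic chromosome genes with MKI67 are 9 members (TOP2A, SMC2, SMC4, NCAPD2, NCAPG, NCAPH, CDCA2, CDCA3 and MKI67), of which the F-test called 4. With sgPRMT5-2, 3 rose, and with sgWDR77-2, 1 rose; the medians were 0.24, 0.22, 0.11 and 0.33 in the same order. In NCAPG 33.7% of the exonic bases lie opposite LCORL, and in SMC4 19% lie opposite TRIM59. The condensin subunits NCAPH and NCAPD2, which fold mitotic chromosomes, rose with sgPRMT5-2, at 0.46 (standard error 0.11, adjusted p = 0.00404) and 0.31 (standard error 0.08, adjusted p = 0.00772). NCAPD2 also rose with sgWDR77-2, at 0.34 (standard error 0.08, adjusted p = 0.0177). Its call with sgPRMT5-2 is lost without sgPRMT5-2 replicate 1 (adjusted p = 0.0564), and its call with sgWDR77-2 without any 1 of sgNeg replicates 1, 2 and 3 and sgWDR77-2 replicates 1 and 2 (adjusted p of 0.0509 to 0.137). CDCA3 (ENSG00000111665.12, chromosome 12, 6844793 to 6851292), a trigger of mitotic entry, was at 40.8, 28.9 and 39.9 CPM in sgNeg, 42.0, 42.6 and 55.3 in sgPRMT5-1, 52.7, 48.4 and 50.4 in sgPRMT5-2, 37.7, 36.5 and 29.9 in sgWDR77-1, and 54.3, 51.8 and 45.2 in sgWDR77-2. The libraries of both PRMT5 guides and of sgWDR77-2 lie above all sgNeg libraries, and those of sgWDR77-1 overlap them. CDCA3 rose with sgPRMT5-2, at 0.49 (standard error 0.14, adjusted p = 0.0111), a call lost without any 1 of sgNeg replicate 2 and sgPRMT5-2 replicate 1 (adjusted p of 0.0552 to 0.101), without the pair (adjusted p = 0.0617) and without the 3 libraries with the most reads outside genes (adjusted p = 0.0747). With sgWDR77-2 CDCA3 was 0.48 (standard error 0.14, adjusted p = 0.0539), called without sgPRMT5-1 replicate 3 or sgWDR77-1 replicates 1 or 3 (adjusted p of 0.0255 to 0.0402).

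MKI67 (ENSG00000148773.14, chromosome 10, 128096659 to 128126423), the marker of dividing cells that coats mitotic chromosomes, was at 877, 1049.9 and 963 CPM in sgNeg, 1115, 1017 and 1099 in sgPRMT5-1, 1171, 1118 and 1078 in sgPRMT5-2, 1612, 1017 and 835 in sgWDR77-1, and 1338, 1119 and 989 in sgWDR77-2. The sgPRMT5-2 libraries lie above all sgNeg libraries, and the other guides overlap them. No guide was called for MKI67, with 0.16 (standard error 0.15, adjusted p = 0.629), 0.22 (standard error 0.15, adjusted p = 0.281), 0.21 (standard error 0.15, adjusted p = 0.435) and 0.25 (standard error 0.15, adjusted p = 0.404) in the same order. TOP2A (ENSG00000131747.15, chromosome 17, 40388525 to 40417896), the topoisomerase that untangles sister chromatids, was at 628, 654 and 655 CPM in sgNeg, 706, 722 and 668 in sgPRMT5-1, 643, 615 and 578 in sgPRMT5-2, 776, 655 and 564 in sgWDR77-1, and 749.6, 727 and 649.5 in sgWDR77-2. The sgPRMT5-1 libraries lie above all sgNeg libraries, and the other guides overlap them. The TOP2A values were 0.11, -0.08, 0.03 and 0.13, none called.

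Between the PRMT5 guides, 3.98% of all tested genes were called lower with sgPRMT5-2 than with sgPRMT5-1 and 3.55% higher. Of the 52 members 1 (1.92%) was called lower, CDK1, at -0.36 (standard error 0.09, adjusted p = 0.0156), and limma voom called 0 higher (0 at unadjusted p under 0.05 and 0 by limma-trend). The CDK1 libraries of the 2 guides do not overlap. The call is lost without any 1 of sgPRMT5-1 replicates 1 and 2 and sgPRMT5-2 replicates 1, 2 and 3 (adjusted p of 0.0527 to 0.109), and without sgWDR77-1 replicate 1 there are 2 calls. The member median was 0.02 (range -0.36 to 0.27), against -0.01 for all genes. With only the 6 libraries of these guides fitted, 3 members were called lower and 1 higher. Without the pair 2 were lower, without the 4 libraries 5 lower and 8 higher, and without the 3 libraries 3 lower.

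Between the WDR77 guides, 0.569% of all tested genes (80) were called lower with sgWDR77-2 than with sgWDR77-1 and 1.84% (259) higher, and with library totals alone as the scale 88 and 131. Of the 52 members 5 (9.62%) were called higher, and limma voom called 0 lower (0 at unadjusted p under 0.05 and 0 by limma-trend). The member median was 0.20 (range -0.21 to 0.68), against 0.01 for all genes, with 45 above 0. The 5 are CCNB1 at 0.65 (standard error 0.11, adjusted p = 0.00403), CDC20 at 0.68 (standard error 0.12, adjusted p = 0.00723), BUB1 at 0.38 (standard error 0.10, adjusted p = 0.0495), CDCA2, a chromatin partner of protein phosphatase 1, at 0.46 (standard error 0.11, adjusted p = 0.03), and CDCA3 at 0.54 (standard error 0.14, adjusted p = 0.0474). The CDC20 call is lost without sgWDR77-2 replicate 1 (adjusted p = 0.0674), the CDCA2 call without any 1 of sgPRMT5-2 replicates 1, 2 and 3, sgWDR77-1 replicate 3, and sgWDR77-2 replicates 1 and 2 (adjusted p of 0.0525 to 0.198), and the BUB1 and CDCA3 calls without any 1 of 13 and 11 of the libraries. The BUB1 and CDCA3 calls are also lost with median of ratios, library totals, no filter or the replicate block, and without the 3 libraries with the most reads outside genes. The count called higher was 3 without sgNeg replicates 1 or 3 or sgPRMT5-1 replicates 1 or 2, 2 without sgPRMT5-2 replicates 1, 2 or 3, sgWDR77-1 replicate 3 or sgWDR77-2 replicate 2, 1 without sgWDR77-2 replicate 1, and 15 without sgWDR77-1 replicate 1. With only the 6 libraries of these guides fitted it was 0, without the pair 16 (median 0.31) and without the 4 libraries 19. Without the 3 libraries with the most reads outside genes, 12 were called lower and 7 higher (median -0.08).

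Between the knockouts, with the 2 guides of each averaged, 11.4% of all tested genes (1608) were called lower and 15.7% (2205) higher in the PRMT5 knockout than in the WDR77 knockout, and with library totals alone as the scale 2163 and 1505, with 3 members called higher. Of the 52 members 9 (17.3%) were called higher, and limma voom called 0 lower (0 at unadjusted p under 0.05 and 0 by limma-trend). The member median was 0.10 (range -0.20 to 0.49), against 0.02 for all genes, with 38 above 0. The 9 are CDC20 at 0.49 (standard error 0.09, adjusted p = 0.000247), CCNB1 at 0.36 (standard error 0.08, adjusted p = 0.00162), AURKA at 0.36 (standard error 0.08, adjusted p = 0.00142), KIF18B at 0.26, UBE2C at 0.24, KIF23 at 0.22, KIF2C at 0.21, CDC25B at 0.21 and BIRC5 at 0.20. For each of the 9 the 6 libraries of 1 knockout overlap the 6 of the other. The count was 4 without sgPRMT5-1 replicates 1 or 3, sgPRMT5-2 replicate 3 or sgWDR77-2 replicate 2, 3 without sgPRMT5-2 replicate 1, sgWDR77-1 replicate 3 or sgWDR77-2 replicate 3, and 18 without sgWDR77-1 replicate 1. Without sgWDR77-1 replicate 3, 1 member was called lower. Without the pair 25 were called higher (median 0.16) and without the 4 libraries 31, and without the 3 libraries with the most reads outside genes 13 were called lower and 6 higher (median -0.04). The calls for AURKA, CCNB1 and CDC20 are kept in all of these fits, each of which averages the WDR77 guides.

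The WDR77 guides differ from each other by more than the knockouts do for CCNB1 (0.65, against 0.36) and CDC20 (0.68, against 0.49). With the guide difference uncalled, the same holds for CDC25B (0.36, against 0.21), UBE2C (0.40, against 0.24) and BIRC5 (0.32, against 0.20). It holds by a small margin for AURKA (0.367, against 0.357), and it does not hold for KIF18B, KIF23 and KIF2C. Each WDR77 guide was also set alone against the mean of the PRMT5 guides in the fit of all 15 libraries, an alternative chosen after the data were seen. Against sgWDR77-1 alone, 14.3% of all tested genes were called lower and 18.2% higher, and 20 of the 52 members were called higher (median 0.18). There limma voom called 0 members lower, with 0 at unadjusted p under 0.05 and 0 by limma-trend. Against sgWDR77-2 alone, 3.19% of all tested genes were called lower and 3.58% higher, and limma voom called 0 members lower and 0 higher (median 0.02). At unadjusted p under 0.05, 3 were lower and 0 higher, and limma-trend called 0 each way. All 9 calls are lost there, with AURKA, CCNB1 and CDC20 at 0.17, 0.03 and 0.15 (adjusted p = 0.299, 0.895 and 0.445). CDC25B, UBE2C and BIRC5 were at 0.03, 0.04 and 0.04, and KIF18B, KIF23 and KIF2C at 0.13, 0.13 and 0.18. Each of the 9 is further above 0 against sgWDR77-1 than against sgWDR77-2, but of the 9 only CCNB1 and CDC20 were called between the WDR77 guides. For KIF2C the values against sgWDR77-1 and sgWDR77-2 were 0.25 and 0.18, and the guides differed by 0.08 (adjusted p = 0.723). A call lost against 1 guide does not show that the difference is absent with it.

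In sgWDR77-1 replicate 1 the difference of the members from replicates 2 and 3 was set beside the length of the gene. The difference in log2 CPM had a median of 0.42 over the 52 members (44 above 0), against -0.02 for all genes. Its Pearson correlation with log2 exonic length was 0.490 over the members and 0.108 over all genes. For the 18 shortest (1286 to 3646 bases), 16 middle (3697 to 4919 bases) and 18 longest members (5322 to 12845 bases) the medians were 0.39, 0.30 and 0.54. In sgNeg replicate 2 that correlation was 0.468 over the members and 0.0747 over all genes, and in the other libraries it ranged from -0.468 to 0.290. By rank (Spearman) it was 0.370 over the members in sgWDR77-1 replicate 1 and 0.473 in sgNeg replicate 2. It was 0.372 in sgPRMT5-1 replicate 1 and 0.342 in sgPRMT5-2 replicate 1, so sgWDR77-1 replicate 1 does not stand apart by rank. The lowest Pearson values are those of sgWDR77-1 replicates 3 (-0.468) and 2 (-0.416), each compared with a mean that includes replicate 1. By rank the lowest is sgPRMT5-2 replicate 3 (-0.445), followed by sgWDR77-1 replicate 3 (-0.377) and sgPRMT5-1 replicate 3 (-0.369). The rank value of sgWDR77-1 replicate 2 is -0.287. Of the 52 members, 2 in sgWDR77-1 replicate 3 and 19 in sgWDR77-1 replicate 2 lie above the mean of the other 2 replicates. Without sgWDR77-1 replicate 3, the uncalled sgWDR77-1 values of BUB1B, PLK1 and CDCA3 turn from -0.10, -0.03 and -0.06 to 0.07, 0.07 and 0.04. Without sgWDR77-1 replicate 1, the uncalled sgWDR77-1 values of MKI67, CENPF, FOXM1, TOP2A and BUB1 turn from 0.21, 0.12, 0.11, 0.03 and 0.05 to -0.05, -0.17, -0.05, -0.08 and -0.04. SMC4 was at 964, 526 and 413 CPM in sgWDR77-1, and CENPE at 269, 160 and 111. Which property of the libraries goes with this was not tested.

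**Figure D5:**
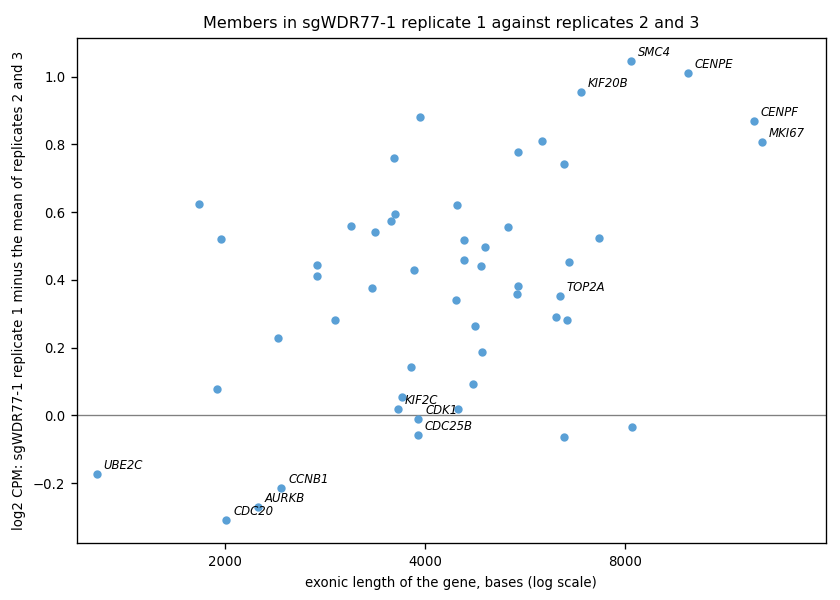
log2 CPM in sgWDR77-1 replicate 1 minus the mean of replicates 2 and 3 (vertical axis) against the exonic length of the gene in bases (horizontal axis, log scale). Each point is 1 of the 52 tested members. Most points lie above 0. Of the longest genes CENPE, CENPF and MKI67 are among the highest, while BUB3 (8175 bases) lies at -0.03. The shorter HMMR (3932 bases) lies at 0.88.

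Per length, the highest levels among the members in sgNeg were those of CCNB1, CDC20, TOP2A and TPX2, at 136, 131, 101 and 96.8 CPM per 1000 bases. The lowest among the tested members were PRC1 at 0.269, CDC25C at 4.32 and SPC25 at 5.32 CPM per 1000 bases.

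Other lists of cell cycle genes were counted beside the members. Over all tested genes the F-test called 35.8%. The shares of all genes that fell and rose were 1.61% and 1.26% with sgPRMT5-1, and 14.7% and 16.3% with sgPRMT5-2. They were 5.9% and 3.58% with sgWDR77-1, and 2.98% and 1.81% with sgWDR77-2. Of 72 other mitosis genes 71 were tested, and the F-test called 26 (36.6%). With sgPRMT5-2, 4 of these fell (5.63%) and 15 rose (21.1%). With sgWDR77-1, 4 fell (5.63%) and 1 rose (1.41%), and with sgWDR77-2, 2 rose (2.82%). The medians were 0.12, 0.14, -0.03 and 0.17, against 0.17, 0.19, -0.02 and 0.18 for the members. Of 42 genes of DNA replication and S phase 17 (40.5%) were called by the F-test. With sgPRMT5-2, 2 of these 42 fell (4.76%) and 11 rose (26.2%), and with sgWDR77-1, 4 fell (9.52%). Their medians were 0.19, 0.18, -0.10 and 0.15. Of 22 regulators of mitotic transcription (E2F, DREAM and MYB-MuvB) 21 were tested and 7 (33.3%) called by the F-test. With sgPRMT5-2, 2 regulators fell (9.52%) and 3 rose (14.3%), and with sgWDR77-1, 1 fell (4.76%). For these 3 lists limma voom called 0 genes with sgPRMT5-1, where 0, 0 and 2 were lower and 16, 11 and 4 higher at unadjusted p under 0.05, and 0 by limma-trend.

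CDK inhibitors, which hold back the kinases of the cycle, are 7 genes with 6 tested and 4 called by the F-test (all genes: 35.8%). With sgPRMT5-2, 2 fell and 2 rose; with each other guide limma voom called 0 (0 lower and 2, 3 and 1 higher at unadjusted p under 0.05, and 0 by limma-trend). CDKN1A (ENSG00000124762.14, chromosome 6, 36676460 to 36687337), the p21 inhibitor, was at 43.0, 39.0 and 49.9 CPM in sgNeg, 53.3, 66.2 and 78.6 in sgPRMT5-1, 147, 125 and 127 in sgPRMT5-2, 26.2, 37.6 and 54.6 in sgWDR77-1, and 47.9, 47.2 and 58.9 in sgWDR77-2. The sgPRMT5-1 and sgPRMT5-2 libraries lie above all sgNeg libraries, and those of the WDR77 guides overlap them. CDKN1A rose with sgPRMT5-2, at 1.60 (standard error 0.17, adjusted p = 6.13e-07), and was 0.58 (standard error 0.18, adjusted p = 0.0889) with sgPRMT5-1, not called except without sgWDR77-1 replicates 1 or 3 (adjusted p of 0.0217 to 0.0339).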

How the data were processed

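RNA of HSC-5 cells was sequenced in 15 libraries, 3 for each of 4 guides and the control sgNeg, and conditions and replicates were taken from the sample labels. The labels do not say whether the cells of a condition are a pool or a clone. The values used are whole-number counts per gene as deposited: per the study's methods, the authors used STAR on hg38 and htseq-count, with annotation release and strand setting unstated. The 5 summary entries of the counting program stayed out of every library size and test. Of all listed reads, 2.748% to 7.163% lie outside genes, 7.086% to 7.929% were ambiguous and 9.487% to 13.1% aligned at several places, and the other 2 entries hold 0 reads.

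Counts were scaled by TMM (trims of 0.3 on log ratios and 0.05 on mean levels), genes with a mean normalized count of at least 3 were kept (14061), and all 15 libraries were fitted together with limma voom (limma 3.58.1, R 4.3.3) with 10 residual and 12 prior degrees of freedom. This replaces DESeq2, the study's tool, because the unit of the tab-separated files could not be checked automatically. There were 7 contrasts and an F-test across the 5 conditions, each with Benjamini-Hochberg adjustment over all tested genes and called at adjusted p under 0.05. Depth was 5146711 to 6730428 reads on genes per library, so a gene at 1 CPM rests on about 5 to 7 reads. The scripts were tested on simulated counts with known changes.

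The members are the 53 listed genes with 1 entry each in the files, and the members and lists were chosen with earlier results of these data known. Described with a value in every library are 11 members named in the plan (MKI67, CCNB1, CDK1, PLK1, AURKB, CDC20, TOP2A, BUB1B, CENPF, KIF20A and FOXM1) and the 3 called members with the largest absolute log2 fold change in each contrast, with PRMT5, WDR77 and CDKN1A. Of each other list, the 3 genes with the smallest adjusted F-test p may be named. Positions and exonic lengths are from GENCODE v44 on GRCh38, matched by Ensembl ID for 60507 of 60649 genes, and promoters are RefSeq sequences on GRCh38.p14.

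Alternatives were median-of-ratios and library-total scaling, no filter and a minimum of 10, limma-trend, a replicate block, a fit of only the libraries compared, and each library left out in turn. Added after the data were seen were 3 fits: without the pair sgNeg replicate 2 and sgWDR77-1 replicate 1, without the 4 libraries furthest from their replicates, and without the 3 libraries with the most reads outside genes. The last keeps 1 sgWDR77-1 library, assumed to vary like the other conditions. Also added was the mean of the PRMT5 guides against each WDR77 guide alone.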

Additional observations from a re-analysis of the deposited data

Results flagged for a closer look

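A tested difference between the knockouts or between 2 guides of the same gene is the reason each value here is listed, and each is a log2 fold change with adjusted p under 0.05 by limma voom. No explanation was tested. In the PRMT5 knockout against the WDR77 knockout, the members CCNB1 (0.36), CDC20 (0.49), CDC25B (0.21), AURKA (0.36), KIF18B (0.26), KIF23 (0.22), KIF2C (0.21), BIRC5 (0.20) and UBE2C (0.24) differed. So did the targets PRMT5 (-0.68) and WDR77 (1.99). The 9 members are 17.3% of the 52 tested, against 15.7% of all tested genes called higher. With library totals alone 3 members were called higher, against 1505 of 14067 genes. Among the genes of other lists in that comparison were CDCA5 (0.37), CENPW (0.41), E2F7 (0.36), RBL2 (-0.45), E2F4 (0.33), RFC2 (0.59), MCM7 (0.47), CDC6 (0.33), CDKN1A (1.08), CDKN2C (-0.82) and CDKN1B (-0.44). With the mean of the PRMT5 guides set against sgWDR77-2 alone, chosen after the data were seen, 16 of these calls are lost. The values there are CCNB1 (0.03), CDC20 (0.15), CDC25B (0.03), AURKA (0.17), KIF18B (0.13), KIF23 (0.13), KIF2C (0.18), BIRC5 (0.04), UBE2C (0.04), CDCA5 (0.17), CENPW (0.14), E2F4 (0.21), RFC2 (0.39), MCM7 (0.26), CDC6 (0.15) and CDKN1B (-0.33). A lost call does not show that the difference is absent with that guide.

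With sgPRMT5-2 against sgPRMT5-1, CDK1 (-0.36), CDKN1A (1.03), CDKN2C (-0.71) and CDKN1B (-0.50) differed. With sgWDR77-2 against sgWDR77-1, CCNB1 (0.65), CDC20 (0.68), BUB1 (0.38), CDCA2 (0.46), CDCA3 (0.54) and WDR77 (-0.85) differed. Between the PRMT5 guides 1.92% of the members were called lower, against 3.98% of all tested genes. Between the WDR77 guides 9.62% of the members were called higher, against 1.84% of all tested genes.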

How the results depend on the processing

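Each library left out in turn gave these ranges of members called: with sgPRMT5-1 0 to 4 higher; with sgPRMT5-2 7 to 17 higher and 2 lower each time; with sgWDR77-1 1 to 8 lower and 0 to 2 higher; with sgWDR77-2 0 to 10 higher and 0 to 1 lower. Between the PRMT5 guides 0 to 2 were called lower, between the WDR77 guides 1 to 15 higher, between the knockouts 3 to 18 higher and 0 to 1 lower, and by the F-test 11 to 35. No share over all genes stands beside these ranges, so they are not a comparison with the other genes.

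Other alternatives that moved a count by over 1.5 times were as follows, and the cause was not tested. No filter gave 1 member higher with sgPRMT5-1, 3 lower with sgWDR77-1 and 3 higher between the WDR77 guides. Fitting only the libraries compared, which leaves fewer samples to estimate the spread, gave 1 higher with sgPRMT5-1, 1 lower with sgWDR77-1, 3 lower and 1 higher between the PRMT5 guides, and 0 higher between the WDR77 guides. Median of ratios gave 1 lower with sgWDR77-2 and 3 higher between the WDR77 guides. Library totals gave the same 1 and 3, and 3 higher between the knockouts. The alternatives that follow were chosen after seeing the data. Without the pair sgNeg replicate 2 and sgWDR77-1 replicate 1 there were 2 higher with sgPRMT5-1, 8 lower with sgWDR77-1, 1 lower with sgWDR77-2, 2 lower between the PRMT5 guides, 16 higher between the WDR77 guides, 25 higher between the knockouts, and 39 by the F-test. Without the 4 libraries furthest from their replicates there were 2 higher with sgPRMT5-1, 15 lower with sgWDR77-1, 1 lower with sgWDR77-2, 5 lower and 8 higher between the PRMT5 guides, 19 higher between the WDR77 guides, 31 higher between the knockouts, and 41 by the F-test. Without the 3 libraries with the most reads outside genes, where the lone sgWDR77-1 library is assumed to vary like the other conditions, there were 2 higher with sgPRMT5-1, 19 higher with sgWDR77-1, 1 lower and 9 higher with sgWDR77-2, 3 lower between the PRMT5 guides, 12 lower between the WDR77 guides, and 13 lower between the knockouts. With the WDR77 knockout taken as sgWDR77-1 alone, 20 were higher between the knockouts, and taken as sgWDR77-2 alone, limma voom called 0 higher (0 at unadjusted p under 0.05 and 0 by limma-trend).

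Smaller moves were also seen. The 15 members higher with sgPRMT5-2 became 10 with library totals, 22 with only the libraries compared, 13 with median of ratios, 13 with the replicate block, and 16, 21 and 16 in the 3 added fits with libraries left out, where 3 rather than 2 were lower. The 4 higher with sgWDR77-2 became 6 without the pair and 6 without the 4 libraries. The F-test count was 15 with library totals.

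The replicate block gave 3 higher between the WDR77 guides and moved no other count by over 1.5 times. The pairing check found no shared numbering: deviations of libraries with the same number correlate at -0.159 to 0.139 over 30 pairs, and the others at -0.123 to 0.234 over 60.

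Of the 462 results of named genes, none turned sign and was called under the alternatives set beforehand. The same held without the pair and with 1 WDR77 guide alone. Values that stayed uncalled did turn sign. There were 39 without sgWDR77-1 replicate 3, 36 without the pair, 35 without sgWDR77-1 replicate 1 and 26 with library totals alone. Without the 4 libraries MKI67 between the knockouts, uncalled at -0.03 with all 15, was called at 0.14, while without sgWDR77-1 replicate 3 it was -0.15, not called. Without the 3 libraries 16 uncalled values turned sign and were called: with sgWDR77-1 ANLN (0.28), DLGAP5 (0.37), KIF20B (0.67) and BUB1B (0.35); between the WDR77 guides ANLN (-0.34), HMMR (-0.53), NEK2 (-0.38), CENPF (-0.50), SMC2 (-0.43), KIF11 (-0.34), CENPE (-0.61), MKI67 (-0.50) and BUB1B (-0.42); between the knockouts CENPF (-0.26), DLGAP5 (-0.23) and KIF20B (-0.27). That alternative lost 15 calls. The calls of CDC25B with sgWDR77-1, of BUB1, CDC20, CDC25B, CDK1, FOXM1 and NCAPH with sgPRMT5-2 were kept throughout. Those of AURKA, CCNB1 and CDC20 between the knockouts were kept except against sgWDR77-2 alone, where all 9 member calls were lost. limma-trend lost 0 calls and gained 1, and a minimum count of 10 lost 0 and gained 2.

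PRC1 holds 5 to 21 counts per library and NUSAP1 0 to 4, and both share most of their exonic bases with another gene on the same strand. Whether depth or ambiguous reads keep these counts low was not tested. With 3 replicates per guide, a member not called is not shown to be unchanged.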
